A study of Mus musculus with 7 samples.

Results

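The 33 genes described here are known for their expression in the cells of brain blood vessels. They were chosen by symbol, as genes of brain endothelium, pericytes and vascular smooth muscle, and not by their values in these libraries. All 33 were among the 23413 gene symbols of the count files, and all 33 were among the 15881 genes that passed the filter on low counts. They fall into 6 roles, namely 6 endothelial genes of cell junctions and adhesion, 3 endothelial growth factor receptors, 5 endothelial surface or secreted proteins, 8 transporters of the blood-brain barrier, 7 pericyte genes and 4 smooth muscle genes.

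RNA was sequenced from 10 mg of frozen brain cortex of 7 APP/PS1 mice, 1 library per mouse. Every mouse carried the APPswe and PSEN1dE9 transgenes of the line, a model in which the brain accumulates amyloid, and no wild-type library is analysed here, so the comparison is one of diets within the transgenic line. The control diet group (CD, written SD in the labels) had 4 mice and took 74% of its energy as carbohydrate, 10% as protein and 16% as fat. The ketogenic diet group (KD) had 3 mice and took less than 0.5% of its energy as carbohydrate, 10% as protein and 90% as fat. Mice of both groups were caged alone, ate the same energy each day, started the diet at 6 months of age and were killed 7 months later, at 13 months. They were bled out under isoflurane, and the methods name no flushing of the vessels before the cortex was frozen. Both sexes took part in the study, but the sex behind each library is not given in the sources used here. Libraries held 29905345 to 36614954 counts in CD and 22272883 to 34028808 in KD. Below, CPM means the counts of a gene scaled to a library total of 1000000, SD is the standard deviation, and a log2 fold change is KD minus CD.

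Brain capillaries differ from those of other organs in that their endothelial cells are sealed by tight junctions and carry very few vesicles. Nutrients, hormones and lipids therefore cross through dedicated transporters, and efflux pumps return many drugs to the blood. Pericytes are embedded in the capillary basement membrane, are held there by platelet-derived growth factor signalling through Pdgfrb, and help to maintain the barrier. Arteries and arterioles are wrapped instead by contractile smooth muscle cells, which set vessel diameter, and Vwf is richest in the endothelium of larger vessels whereas Mfsd2a marks that of capillaries. Several of these genes are also used outside vessels, such as Tjp1, Slc3a2 and Slc7a5 in neurons and glia and Slco1c1 in astrocytes, so a level in whole cortex adds up all its sources.

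Before the diets are compared, some libraries stood apart from the others in their content of other cell types. The summed level of 10 meningeal fibroblast markers was 69.4, 74.4, 123 and 410 CPM in CD replicates 1 to 4 and 74.3, 61.9 and 189 CPM in KD replicates 1 to 3. All 10 of these markers, Col1a1, Col1a2, Dcn and Ogn among them, were highest in CD replicate 4, and none was at 0 in any library. Markers of perivascular macrophages (Mrc1, Cd163, Lyve1, Pf4, F13a1 and Cbr2) summed to 13.9, 15.6, 25.3 and 46.9 CPM in CD and 18.1, 16.0 and 20.7 CPM in KD, and all 6 were highest in CD replicate 4. The 4 olfactory bulb markers Eomes, Tbx21, Cdhr1 and Doc2g, which mark a region outside the cortex, summed to 56.1 CPM in CD replicate 4, 15.6 CPM in KD replicate 3 and 2.52 to 7.20 CPM in the other 5 libraries, with Eomes at 0 in KD replicate 2. Markers of the choroid plexus reached 465 CPM in CD replicate 1, where Ttr alone was at 425 CPM, against 12.9 to 81.5 CPM elsewhere. The 6 markers of cortical excitatory neurons summed to 777 to 990 CPM in CD and 739 to 926 CPM in KD. The lowest CD sum was that of CD replicate 4, where the median ratio of these markers to the other CD libraries was 0.772. In KD replicate 3, 5 of the 6 were at their lowest. Oligodendrocyte markers summed to 1028 CPM in CD replicate 3, 1074 CPM in KD replicate 3 and 2008 to 4006 CPM elsewhere, while those of astrocytes (4303 to 6754 CPM) and microglia (370 to 668 CPM) had narrower ranges. Of the red blood cell genes, Hba-a1 and Hba-a2 were listed at 0 in every library, and beta-globin (as Beta-s) was at 46.7 to 82.7 CPM in CD and 22.5 to 72.5 CPM in KD.

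**Figure D1:**
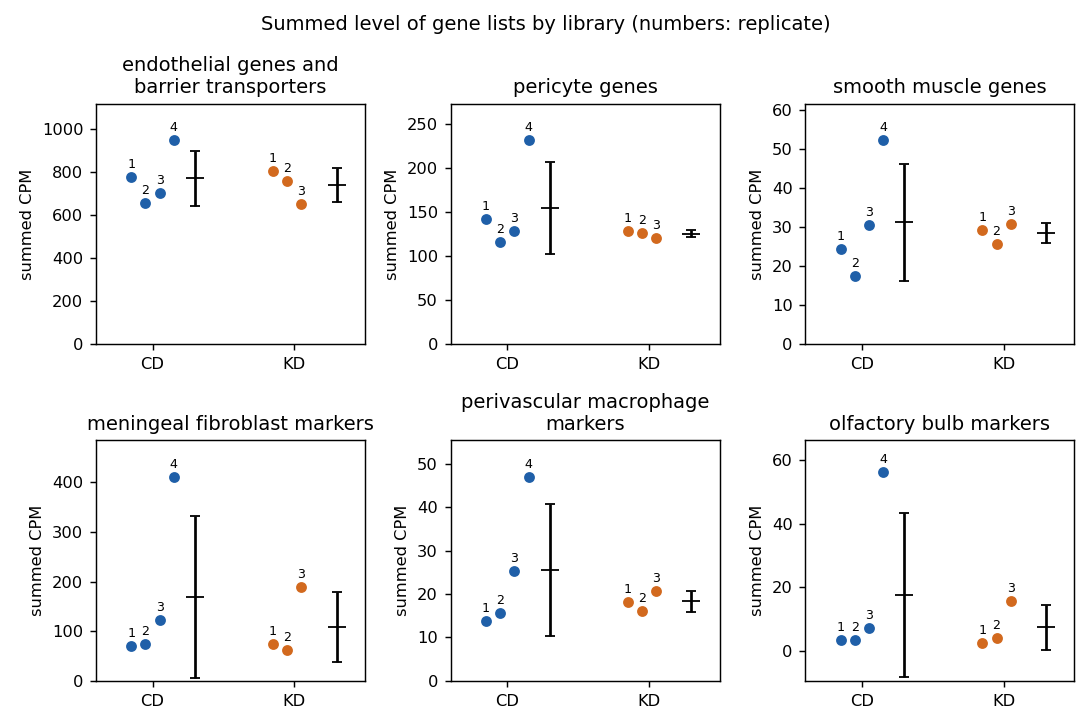
Summed CPM of 3 groups of vascular genes (top row) and of 3 lists of marker genes of other cells or regions (bottom row), with CD libraries in blue and KD libraries in orange, each dot labelled with its replicate number. Horizontal marks and bars give the mean and SD of the group. CD replicate 4 is the highest library in all 6 panels, at 232 CPM for the pericyte genes against 117 to 143 CPM in the other 6 libraries. Vtn alone gave 146 CPM of that pericyte sum, against 41.4 to 59.4 CPM in the other 6 libraries, whereas Rgs5 was lowest in CD replicate 4.

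The vascular genes moved with the same library. CD replicate 4 held the highest CPM of the 7 libraries for 23 of the 33 genes (69.7%), where 25.3% of all tested genes were highest there. Its summed level of the 33 genes was 1233 CPM, against 946, 791 and 861 CPM in CD replicates 1 to 3 and 963, 913 and 805 CPM in KD replicates 1 to 3. The median ratio of CD replicate 4 to the mean of the other 3 CD libraries was 1.43 for the 33 genes and 1.04 for all tested genes. In 7 genes (21.2%) that ratio was over 2, where 5.95% of all tested genes were over 2. These were Anpep at 4.65, Vwf at 3.60, Vtn at 2.94, Myh11 at 2.88, Acta2 at 2.70, Cdh5 at 2.11 and Tagln at 2.02. In 5 others the ratio was under 1, namely Rgs5 at 0.713, Mfsd2a at 0.83, Emcn at 0.860, Higd1b at 0.932 and Slco1c1 at 0.967. Of the 4 smooth muscle genes, 3 were thus over 2 in this ratio and Notch3 was at 1.14, while the 7 pericyte genes ran from 0.713 for Rgs5 to 4.65 for Anpep. Within the 4 CD libraries, 1 library lay apart past Dixon's critical value for 5 genes (15.2%), where it did for 7.04% of all tested genes, and in all 5 it was CD replicate 4, upwards, where 2.99% of all tested genes were so.

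At the low end, 16 genes (48.5%) were lowest in CD replicate 2, where 17.6% of all tested genes were lowest, and 11 (33.3%) were lowest in KD replicate 3, where 18.1% of all tested genes were. Pericyte and smooth muscle genes together took 17.7%, 17.0%, 18.5% and 23.0% of the counts of the 33 genes in CD replicates 1 to 4 and 16.4%, 16.7% and 18.9% in KD replicates 1 to 3. Vtn alone gave 146 of their 284 CPM in CD replicate 4 and 41.4 to 59.4 CPM elsewhere. The higher share in CD replicate 4 thus rested largely on Vtn. Because the meningeal, macrophage and olfactory markers were high in the same library as the vascular genes, the diet differences that it moves are given below with and without CD replicate 4. The part of those other cells in the levels of the vascular genes was not tested.

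**Figure D2:**
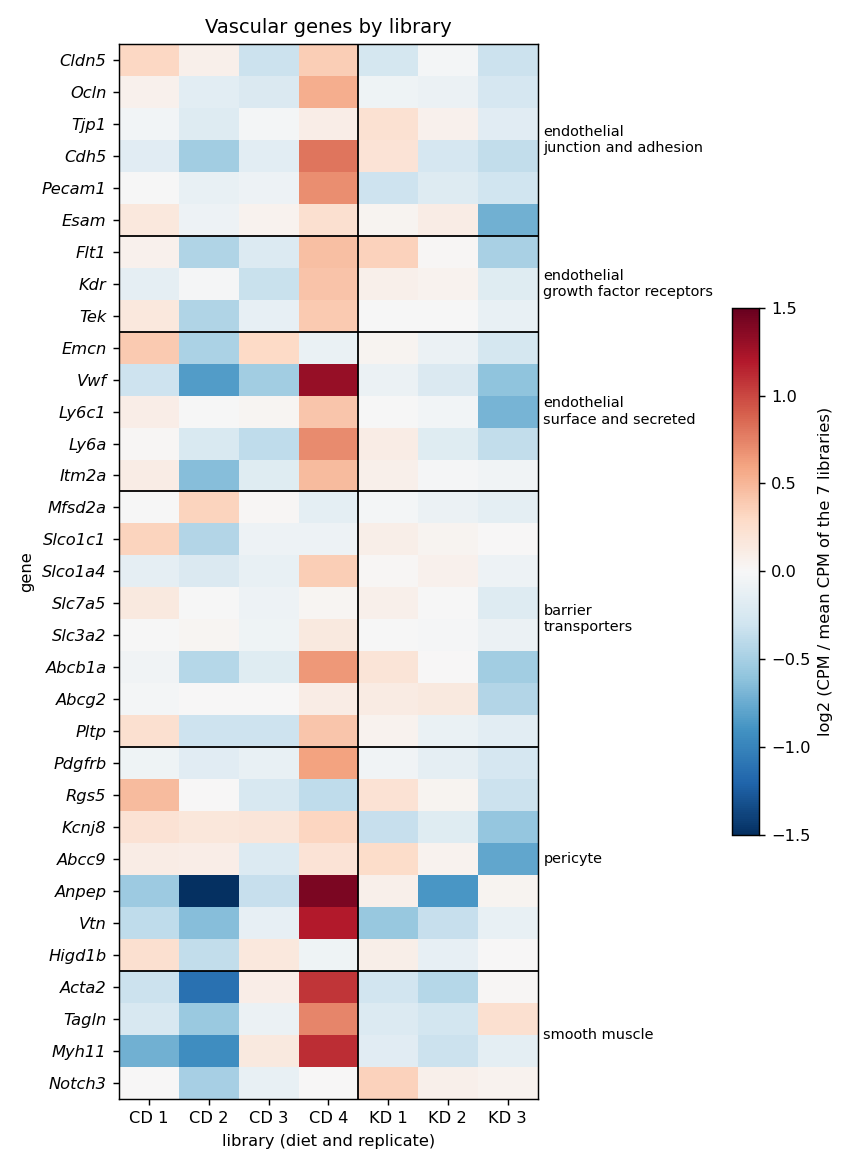
Heat map of the 33 vascular genes (rows, grouped by role) in the 7 libraries (columns, CD replicates 1 to 4 left of the line and KD replicates 1 to 3 right of it). Colour is the log2 ratio of a library's CPM to the gene's mean over the 7 libraries, red above and blue below, and the scale ends at 1.5 in either direction. The column of CD replicate 4 is red for most genes and darkest for Anpep, Vwf, Vtn, Acta2 and Myh11, whereas that of CD replicate 2 is mostly blue.

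Levels per length, as CPM per kilobase of exon averaged over the 7 libraries, spanned from 0.402 for Anpep to 31.6 for Vtn. Vtn encodes vitronectin, a secreted adhesion protein that pericytes make in the brain, and its libraries ranged from 20.4 to 72.1 CPM per kilobase. Next came Slc3a2 at 21.9, Tjp1 at 19.7, Itm2a at 18.4, Cldn5 at 13.9, Slc7a5 at 13.02, Slco1c1 at 12.5 and Slco1a4 at 11.6. The library ranges of neighbours in this order overlapped, for example 20.5 to 24.2 for Slc3a2 and 17.2 to 23.1 for Tjp1, so the order of adjacent genes is not resolved. Highest in each role were Tjp1 among junction genes, Tek (4.34) among receptors, Itm2a among surface proteins, Slc3a2 among transporters, Vtn among pericyte genes and Acta2 (4.11) among smooth muscle genes. At the bottom stood Emcn at 0.933, Notch3 at 1.02 and Myh11 at 1.02, followed upwards by Kcnj8 at 1.22 and Abcc9 at 1.27.

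**Figure D3:**
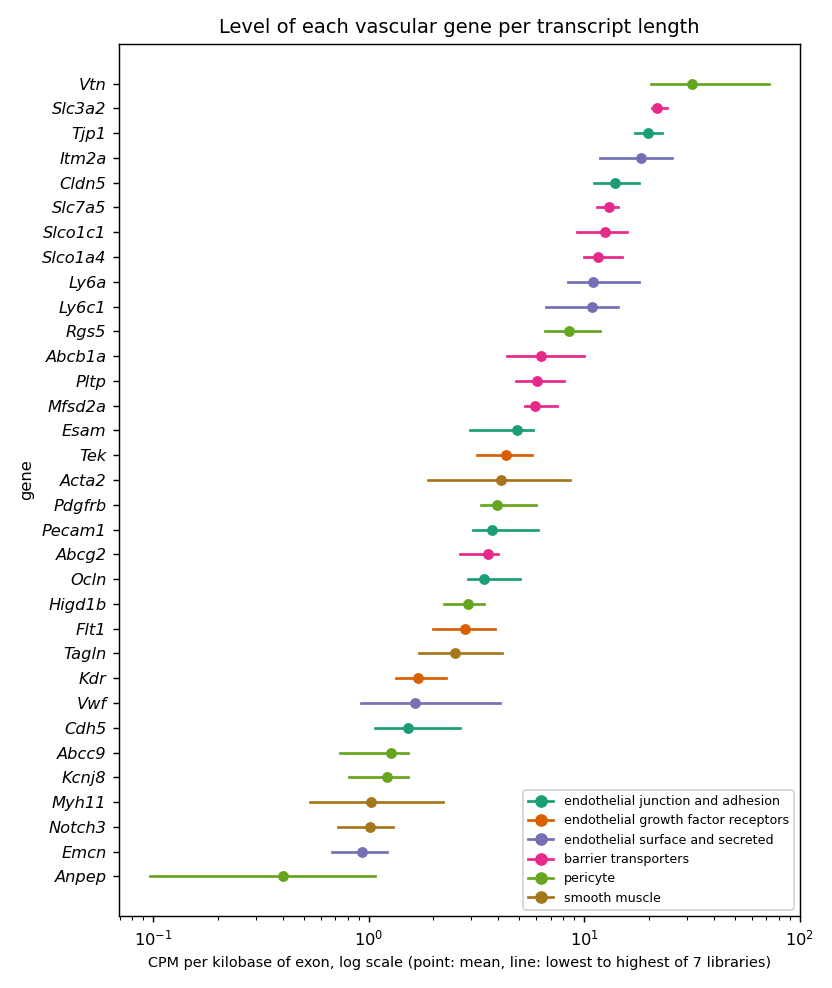
Level of each vascular gene per length, as CPM per kilobase of exon on a log axis, with the mean of the 7 libraries as a point, the lowest to highest library as a line, and the role as the colour. Vtn is the highest at 31.6 and Anpep the lowest at 0.402, and the long lines of Anpep, Vwf, Vtn, Acta2 and Myh11 reach to the right because of CD replicate 4.

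Genes also differed in how much they varied between mice. The coefficient of variation over the 7 libraries was 5.49% for Slc3a2, 7.36% for Slc7a5 and 10.4% for Tjp1, which are among the genes with broad use in the cortex. It was 78.3% for Anpep, 66.4% for Vwf, 57.5% for Vtn, 54.6% for Myh11 and 52.2% for Acta2. Without CD replicate 4 those 5 genes had coefficients of 42.4%, 18.7%, 14.9%, 26.5% and 26.6%. The spread of Pdgfrb went from 23.2% to 4.89%, while that of Rgs5 stayed between 20.9% and 22.2%.

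KD was then compared with CD to ask whether 7 months of the ketogenic diet altered the vascular genes of the cortex. No gene passed the test after correction for multiple testing. The adjusted p of the 33 genes was 0.979 or above (edgeR's quasi-likelihood test, adjusted by Benjamini-Hochberg over all 15881 genes), as was that of the whole table, where 0.00% of genes passed 0.05. DESeq2 also called none of the 33 at an adjusted p under 0.05. None had a raw p of at most 0.01 in edgeR's test, where 0.321% of all tested genes did. Kcnj8 alone (3.03% of the 33) had a raw p under 0.05, where 3.19% of all tested genes did, so the share among the vascular genes was that of the background. The CD and KD libraries did not overlap for 4 genes (12.1%), where 4.20% of all tested genes did not overlap. Kcnj8, Pecam1 and Ly6c1 were lower in every KD library than in any CD library, and Notch3 was higher. In a bulk sample, fewer cells of a type and less RNA per cell cannot be told apart.

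Most fold changes were small and below 0 when all libraries were used. The log2 fold change was below 0 for 27 of the 33 genes (81.8%), where it was below 0 for 51.0% of all tested genes, and its median was -0.13 against -0.00 for all tested genes. Standard errors ran from 0.08 for Slc3a2 to 0.69 for Anpep, with a median of 0.20, so single differences of this size were within their error. This direction rested on CD replicate 4. Without it, 18 of the 33 genes (54.5%) had a log2 fold change above 0, where 50.7% of all tested genes did, the median was 0.03, and 12 genes changed sign. Kcnj8 was again the 1 gene that had a raw p under 0.05, where 2.73% of all tested genes did, and 6 genes (18.2%) did not overlap, where 7.22% of all tested genes did not. The 2 genes added were Mfsd2a, lower in KD, and Slco1a4, higher in KD.

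Leaving out CD replicate 4 and KD replicate 3, which had the highest meningeal fibroblast and olfactory bulb sums of the 7 libraries, turned the direction. The log2 fold change was then above 0 for 25 genes (75.8%), where 50.2% of all tested genes were above 0, and the median was 0.09. Raw p-values under 0.05 were found for 4 genes (12.1%), where 2.54% of all tested genes had one, and none was past the adjusted threshold. All 4 were higher in KD, namely Tjp1 (log2 fold change 0.25, raw p of 0.0284 from edgeR's quasi-likelihood test), Vwf (0.40, raw p of 0.0355), Abcb1a (0.33, raw p of 0.0361) and Flt1 (0.38, raw p of 0.0442). Ranges of the remaining 3 CD and 2 KD libraries did not overlap for 11 genes (33.3%), where 16.1% of all tested genes did not, with 7 higher in KD (Tjp1, Kdr, Vwf, Slco1a4, Abcb1a, Abcg2 and Notch3) and 4 lower (Kcnj8, Pecam1, Ly6c1 and Mfsd2a). The count and the direction of the differences thus depended on which libraries entered. Of the 33 genes, 23 were highest in CD replicate 4 and 11 were lowest in KD replicate 3. Leaving both out therefore tends to raise the fold changes of these genes by itself, so these counts do not test the diet.

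**Figure D4:**
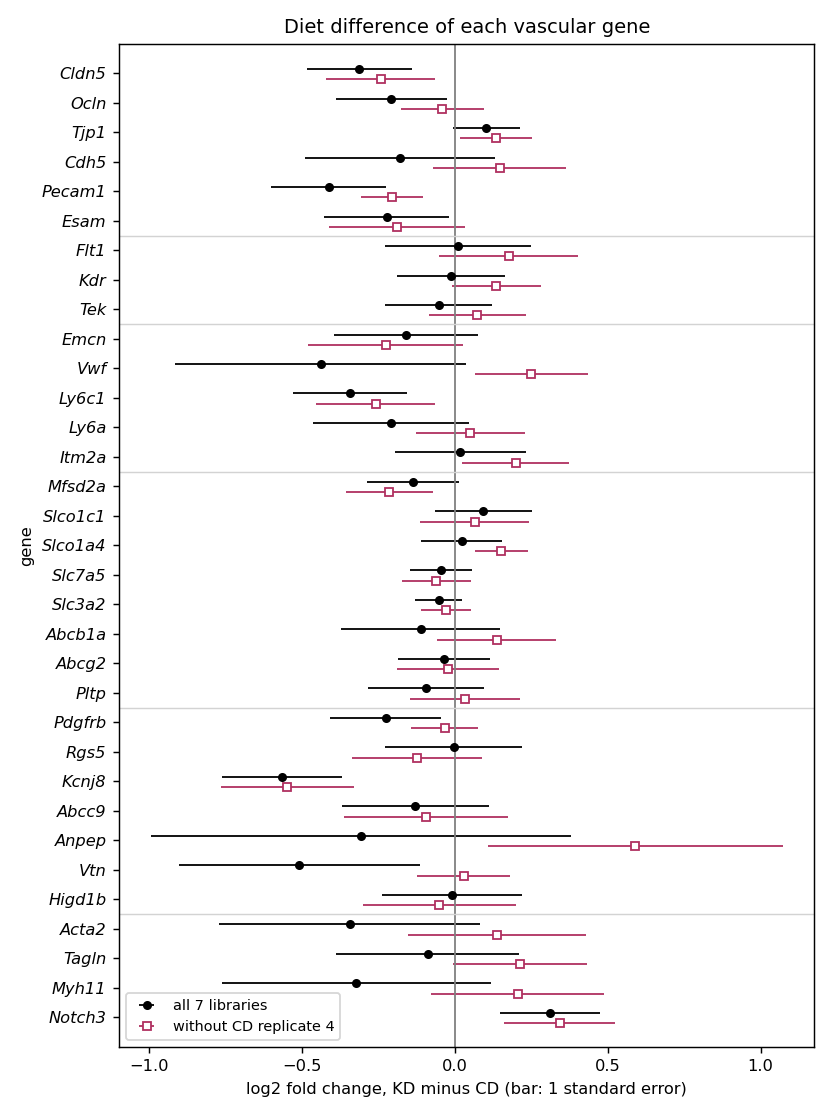
Log2 fold change of each vascular gene, KD minus CD, with 1 standard error as the bar, from all 7 libraries (filled circles) and without CD replicate 4 (open squares). Kcnj8 is the farthest left at -0.57 and stays at -0.55 without that library, whereas Vwf, Anpep, Vtn, Acta2 and Myh11 move from the left of 0 to the right.

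Among the junction and adhesion genes, 5 of 6 had a log2 fold change below 0 and none passed the test, with a median of -0.22 that went to -0.11 without CD replicate 4. Pecam1 encodes the adhesion molecule that lines the contacts between endothelial cells (chr11:106654217-106750628). It was at 23.4, 21.6, 22.3 and 38.0 CPM in CD replicates 1 to 4 and at 18.9, 20.5 and 19.1 CPM in KD replicates 1 to 3. Every KD library lay below every CD library, and CD replicate 4 lay far above the other 3. The means were 26.3 ± 7.82 CPM in CD (SD, n = 4) and 19.5 ± 0.885 CPM in KD (SD, n = 3), and the log2 fold change was -0.41 ± 0.19 (SE) with a raw p of 0.0579 and an adjusted p of 0.979 in edgeR's quasi-likelihood test. Without CD replicate 4 the log2 fold change of Pecam1 was -0.21 ± 0.10, and the KD libraries still lay below the 3 remaining CD libraries.

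Cldn5, the main sealing claudin of the brain endothelium, was at 24.4, 20.8, 15.8 and 25.5 CPM in CD and at 16.5, 19.4 and 15.8 CPM in KD. CD replicate 3 reached down to the KD libraries, so the groups overlapped, and the log2 fold change was -0.31 ± 0.17 (SE), with a raw p of 0.104 from edgeR's quasi-likelihood test. Without CD replicate 3 that raw p was 0.0115, with a log2 fold change of -0.43 and no adjusted p under 0.05. In that fit 1161 of 15729 genes had a raw p under 0.05, against 506 of 15881 with all libraries. In the other fits that left out libraries, the raw p of Cldn5 was 0.0685 to 0.404. Tjp1, the scaffold that ties junction proteins to the cytoskeleton, was at 150, 134, 151 and 165 CPM in CD and at 180, 161 and 137 CPM in KD, overlapping throughout (log2 fold change 0.10 ± 0.11). Cdh5, the cadherin of endothelial adherens junctions, was at 5.73, 4.48, 5.77 and 11.2 CPM in CD and at 7.40, 5.38 and 4.98 CPM in KD. Its log2 fold change went from -0.18 to 0.15 without CD replicate 4. Ocln, another tight junction protein, had 12.5 to 21.2 CPM in CD and 12.2 to 13.9 CPM in KD (-0.21 ± 0.18). Esam, an adhesion molecule of endothelial contacts, had 13.3 to 16.6 CPM in CD and 14.5, 15.1 and 8.49 CPM in KD (-0.22 ± 0.20), so only KD replicate 3 lay outside the CD range.

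For the 3 growth factor receptors the median log2 fold change was -0.01 with all libraries and 0.13 without CD replicate 4, when all 3 were above 0. Tek, the angiopoietin receptor, was at 22.8, 14.9, 18.7 and 26.9 CPM in CD and at 20.4, 20.4 and 18.9 CPM in KD. All KD libraries lay inside the CD range, and the log2 fold change was -0.05 ± 0.17. Flt1, which binds vascular endothelial growth factor as a trap, was at 39.6, 27.8, 33.04 and 52.03 CPM in CD and at 48.1, 38.5 and 27.03 CPM in KD, with a log2 fold change of 0.01 ± 0.24. Kdr, the main signalling receptor for that factor, had 12.1 to 20.6 CPM in CD and 13.5 to 16.1 CPM in KD (-0.01 ± 0.18). The raw p-values of these 3 genes were 0.772, 0.965 and 0.942 in edgeR's quasi-likelihood test.

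Of the 5 surface and secreted proteins, 4 had a log2 fold change below 0 and none passed the test, and the median of -0.21 went to 0.05 without CD replicate 4. Vwf, the clotting protein stored in endothelial granules, was at 21.3, 14.8, 18.5 and 65.5 CPM in CD and at 24.9, 22.8 and 17.4 CPM in KD. CD replicate 4 alone was high, and the other 3 CD libraries overlapped the KD range. The log2 fold change was -0.44 ± 0.47 with all libraries and 0.25 ± 0.18 without CD replicate 4. Ly6c1, a surface antigen of mouse brain capillaries (chr15:75044018-75048830), was at 19.5, 18.1, 18.5 and 24.1 CPM in CD and at 18.1, 17.6 and 11.2 CPM in KD. The groups touched rather than parted, since the lowest CD library and the highest KD library both round to 18.1 CPM, and KD replicate 3 was the low one. The log2 fold change of Ly6c1 was -0.34 ± 0.19, and -0.06 without CD replicate 4 and KD replicate 3. Ly6a, which lies 45986 bases from Ly6c1 on the same strand, had 10.2 to 21.7 CPM in CD and 10.2 to 14.3 CPM in KD (-0.21 ± 0.26). Its relatives Ly6c2 and Ly6i were at 0.628 CPM or less in every library. Itm2a, a membrane protein enriched in brain endothelium, was at 34.6, 20.6, 28.4 and 44.7 CPM in CD and at 33.8, 31.6 and 30.8 CPM in KD, with a log2 fold change of 0.02 ± 0.21. Emcn, a mucin of capillary and venous endothelium, had 3.64 to 6.61 CPM in CD and 4.22 to 5.17 CPM in KD (-0.16 ± 0.24).

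For all 8 barrier transporters the CD and KD libraries overlapped. Their summed level was 361 ± 40.0 CPM in CD (SD, n = 4) and 353 ± 27.3 CPM in KD (SD, n = 3), and their median log2 fold change was -0.05, or 0.01 without CD replicate 4. Slc3a2, the heavy chain that carries the large neutral amino acid transporter to the membrane, was at 76.8, 78.8, 73.6 and 85.5 CPM in CD and at 77.1, 76.1 and 72.5 CPM in KD (log2 fold change -0.05 ± 0.08). Slc7a5, the transporter itself, was at 53.4, 48.1, 45.7 and 49.2 CPM in CD and at 51.0, 48.3 and 42.4 CPM in KD (-0.05 ± 0.10). For both the groups overlapped, and their standard errors were the smallest of the 33 genes.

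Mfsd2a, which brings docosahexaenoic acid into the brain as a lysolipid and restrains vesicle traffic, was at 13.3, 16.8, 13.4 and 12.0 CPM in CD and at 13.1, 12.5 and 12.0 CPM in KD. CD replicate 4 was at the KD level here, and the log2 fold change went from -0.14 ± 0.15 to -0.21 ± 0.14 without it. Slco1a4, an organic anion carrier, was at 67.6, 64.0, 68.7 and 96.2 CPM in CD and at 75.5, 77.7 and 70.2 CPM in KD. Without CD replicate 4 all 3 KD libraries lay above the CD libraries, by a log2 fold change of 0.15 ± 0.09 with a raw p of 0.117 in edgeR's quasi-likelihood test. Slco1c1, the thyroxine carrier 235262 bases away on the opposite strand of chromosome 6, was at 81.9, 47.9, 61.2 and 61.6 CPM in CD and at 68.9, 66.6 and 65.0 CPM in KD (0.09 ± 0.16). Its KD libraries sat in the middle of a wide CD range. The efflux pump Abcb1a was at 33.2, 25.6, 30.4 and 54.5 CPM in CD and at 39.5, 34.6 and 24.1 CPM in KD (-0.11 ± 0.26), and its close relative Abcb1b was at 6.38 to 9.54 CPM. Abcg2, another efflux pump, had 28.7 to 31.8 CPM in CD and 32.1, 32.6 and 21.6 CPM in KD (-0.04 ± 0.15), where KD replicate 3 stood below all other libraries. Pltp, a phospholipid transfer protein, had 12.4 to 20.6 CPM in CD and 13.8 to 16.1 CPM in KD (-0.09 ± 0.19), and its exons overlap those of Ctsa on the opposite strand.

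All 7 pericyte genes had a log2 fold change below 0, with a median of -0.23, but the median was -0.05 without CD replicate 4, when 2 of the 7 were above 0. Kcnj8 was the gene of the 33 with the smallest p. It encodes the pore of a potassium channel that opens when cellular ATP is low, and Abcc9 encodes the regulatory subunit of the same channel, which in brain vessels is found mainly in pericytes and smooth muscle. Kcnj8 (chr6:142564837-142571614) was at 3.59, 3.48, 3.51 and 3.88 CPM in CD replicates 1 to 4 and at 2.44, 2.73 and 2.07 CPM in KD replicates 1 to 3. The CD libraries lay close together, and all 3 KD libraries lay below them without overlap. The means were 3.61 ± 0.183 CPM in CD (SD, n = 4) and 2.41 ± 0.335 CPM in KD (SD, n = 3), and the log2 fold change was -0.57 ± 0.20 (SE) with a raw p of 0.0196 and an adjusted p of 0.979 in edgeR's quasi-likelihood test. These levels came from 104 to 142 counts per CD library and 46 to 93 counts per KD library. The log2 fold change of Kcnj8 was -0.55 without CD replicate 4 (raw p of 0.0359, edgeR's quasi-likelihood test), -0.46 without KD replicate 3 (raw p of 0.0669) and -0.43 without both (raw p of 0.107), so 1 library decided whether its raw p was under 0.05.

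Abcc9 (chr6:142587862-142702315) lies 16247 bases from Kcnj8 on the same strand. It was at 11.5, 11.3, 9.21 and 12.2 CPM in CD and at 12.8, 10.96 and 6.20 CPM in KD. KD replicate 1 was the highest of all libraries and KD replicate 3 the lowest, so the CD range lay inside that of KD, and the log2 fold change was -0.13 ± 0.24 with a raw p of 0.608 in edgeR's quasi-likelihood test. Without KD replicate 3 it was 0.13. The subunits of the channel therefore did not show the same pattern by library, although no test of the difference between them was run. Exons of Abcc9 overlap those of 5330439B14Rik on the opposite strand.

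The sequences just before the starts of the 2 channel genes are shown because the pair sits side by side and differed in how its libraries fell. They are 250 bases for Kcnj8 (chr6:142571615-142571864, minus strand) and 209 bases for Abcc9 (chr6:142702316-142702524, minus strand) of GRCm38.p6, taken from RefSeq, 5′ to 3′, with capitals for letters of the motifs searched.
Kcnj8: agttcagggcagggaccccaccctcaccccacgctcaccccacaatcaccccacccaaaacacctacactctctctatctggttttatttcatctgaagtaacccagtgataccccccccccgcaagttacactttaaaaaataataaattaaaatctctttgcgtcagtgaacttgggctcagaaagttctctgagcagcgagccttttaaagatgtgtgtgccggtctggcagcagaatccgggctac
Abcc9: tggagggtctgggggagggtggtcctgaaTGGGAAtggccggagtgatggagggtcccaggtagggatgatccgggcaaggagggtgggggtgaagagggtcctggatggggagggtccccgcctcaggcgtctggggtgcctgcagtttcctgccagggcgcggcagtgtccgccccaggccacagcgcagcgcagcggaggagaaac
The Kcnj8 stretch held none of the 4 motifs searched on either strand. The Abcc9 stretch runs from 250 to 42 bases before the RefSeq start, because an annotated exon begins there. It held TGGGAA, the core letters bound by RBPJ (the DNA-binding partner of Notch receptors), from 221 to 216 bases before that start. In the 250 bases before a start, searched on both strands, that core was found in 21.6% of 32851 RefSeq promoters. It was found in 5 of the 23 vascular genes with an entry (21.7%). Here and below, a gene counted if any of its promoters held the motif, so shares of promoters and of genes are not in like units.

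Pdgfrb, the receptor that keeps pericytes on the vessel, was at 20.7, 19.2, 20.1 and 32.9 CPM in CD and at 20.9, 19.8 and 18.3 CPM in KD. Apart from CD replicate 4 the libraries of both diets were nearly level, and the log2 fold change of -0.23 ± 0.18 became -0.03 ± 0.11 without it. Rgs5, a signalling regulator that is among the most specific pericyte genes, was at 53.9, 38.9, 32.7 and 29.8 CPM in CD and at 44.8, 39.6 and 31.0 CPM in KD. Its means were 38.8 ± 10.7 CPM in CD (SD, n = 4) and 38.5 ± 6.97 CPM in KD (SD, n = 3), and CD replicate 4 was its lowest library. Vtn was at 49.3, 41.4, 58.8 and 146 CPM in CD and at 43.4, 50.6 and 59.4 CPM in KD, and its log2 fold change went from -0.51 ± 0.39 to 0.03 ± 0.15 without CD replicate 4. Pericyte genes therefore took opposite positions in the same library, with Vtn and Pdgfrb at their highest and Rgs5 at its lowest.

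Anpep, a membrane peptidase used as a pericyte marker, was at 1.14, 0.401, 1.31 and 4.42 CPM in CD and at 1.75, 0.911 and 1.71 CPM in KD. These were 12 to 162 counts per library, and the log2 fold change of -0.31 ± 0.69 became 0.59 ± 0.48 without CD replicate 4. Higd1b, a small mitochondrial membrane protein used as a pericyte marker, had 1.91 to 2.91 CPM in CD and 2.26 to 2.61 CPM in KD, with a log2 fold change of -0.01 ± 0.23.

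**Figure D5:**
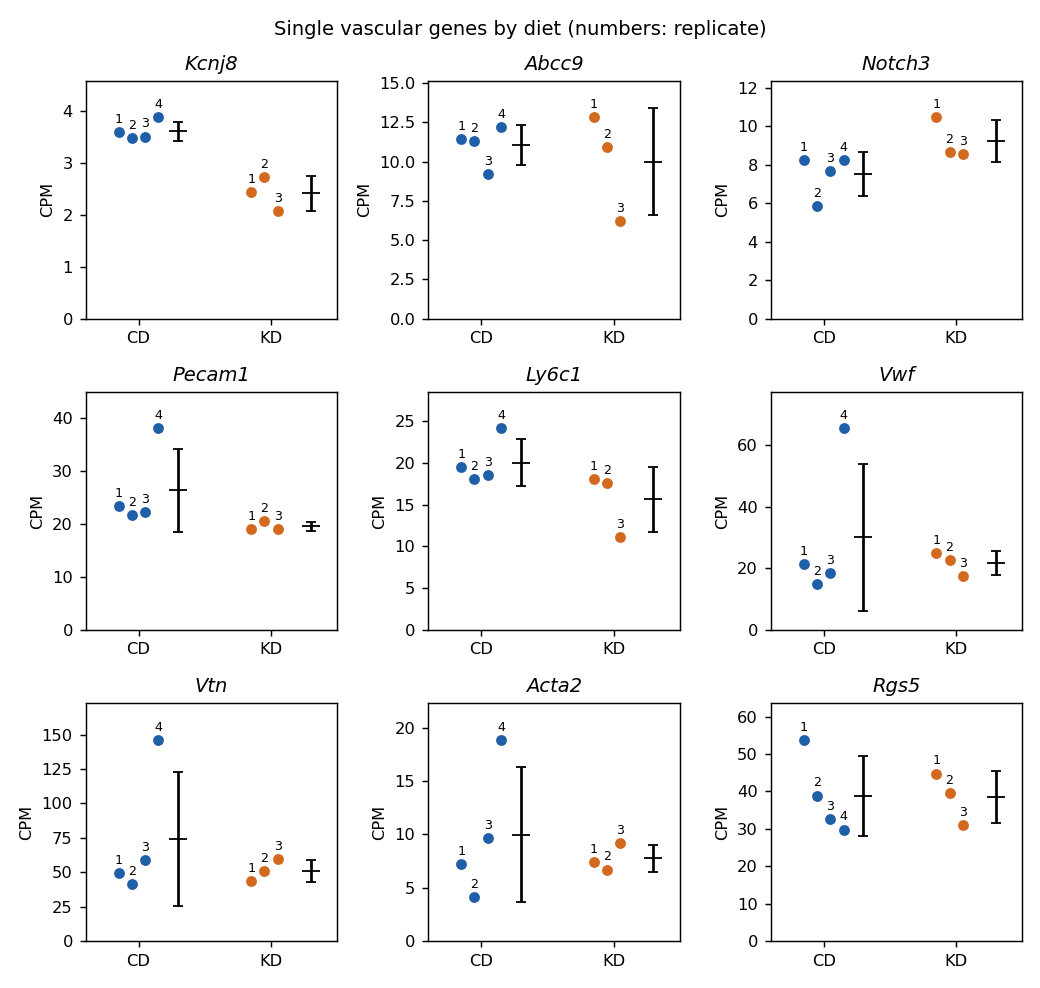
CPM of 9 vascular genes by library, with CD in blue and KD in orange, dots labelled with the replicate number, and marks and bars giving the group mean and SD. Kcnj8 is lower in all 3 KD libraries (2.07 to 2.73 CPM) than in any CD library (3.48 to 3.88 CPM), Notch3 is higher, and CD replicate 4 is far above the rest for Pecam1, Vwf, Vtn and Acta2 but lowest for Rgs5.

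Smooth muscle genes divided into 3 contractile proteins, which were at least 2.02 times as high in CD replicate 4 as in the mean of the other CD libraries, and Notch3, for which that ratio was 1.14. Acta2, smooth muscle actin, was at 7.21, 4.15, 9.64 and 18.9 CPM in CD and at 7.40, 6.70 and 9.16 CPM in KD. Myh11, the myosin heavy chain of smooth muscle, was at 4.73, 4.08, 8.63 and 16.8 CPM in CD and at 6.93, 6.23 and 7.05 CPM in KD. Tagln, an actin-binding protein, was at 4.25, 3.41, 4.70 and 8.30 CPM in CD and at 4.36, 4.14 and 5.93 CPM in KD. For all 3, CD replicate 2 was the lowest library and CD replicate 4 the highest, and the KD libraries lay between them. Their log2 fold changes were -0.34 ± 0.43, -0.32 ± 0.44 and -0.09 ± 0.30 with all libraries, and 0.14, 0.21 and 0.21 without CD replicate 4. The related actins Actg2 and Actc1 were at 0.191 CPM or less in every library, and exons of Tagln overlap those of Pcsk7 on the opposite strand.

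Notch3 encodes the Notch receptor of mural cells, which keeps arterial smooth muscle in its mature state and whose mutation causes a hereditary small vessel disease in people (chr17:32120820-32166852). It was at 8.26, 5.85, 7.66 and 8.28 CPM in CD and at 10.5, 8.67 and 8.58 CPM in KD. Every KD library lay above every CD library, by a small margin for KD replicates 2 and 3. The means were 7.51 ± 1.14 CPM in CD (SD, n = 4) and 9.24 ± 1.07 CPM in KD (SD, n = 3), and the log2 fold change was 0.31 ± 0.16 (SE) with a raw p of 0.0917 and an adjusted p of 0.979 in edgeR's quasi-likelihood test. It was 0.34 ± 0.18 without CD replicate 4 and 0.41 when KD replicate 3 was left out too, so its direction held in each of these fits.

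Acta2 is a textbook target of serum response factor, which binds CArG boxes, and the letters around its boxes are shown as the smooth muscle counterpart of the channel genes. Both stretches are 30 bases of GRCm38.p6 from RefSeq, 5′ to 3′, at chr19:34255438-34255467 and chr19:34255388-34255417 on the minus strand, with capitals for the CArG letters and, in the proximal one, for TGGGAA as well.
Acta2 distal: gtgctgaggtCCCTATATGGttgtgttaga
Acta2 proximal: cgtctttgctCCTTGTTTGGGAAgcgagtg
The distal box, CCCTATATGG, lies 84 to 75 bases before the start, and the proximal one, CCTTGTTTGG, lies 34 to 25 bases before it and overlaps the TGGGAA at 27 to 22 bases. A CArG box with up to 1 C or G among its inner letters was found in 8.59% of the promoters and in 4 of the 23 vascular genes with an entry (17.4%), namely Acta2, Kdr, Ocln and Slco1a4. The letters TATAAA were found in 12.4% of promoters and 3 of the 23 genes, and AGGAAG, a core bound by ETS factors of endothelial cells, in 29.5% and 8 of the 23 (34.8%). Starts are those of RefSeq, and both Acta2 boxes lie inside the GENCODE M21 span of the gene, which reaches chr19:34255590. These matches describe the sequence only.

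The wider signalling around these genes was read from lists of other genes. Of 20 ligands, receptors and targets of the vascular endothelial growth factor, angiopoietin, platelet-derived growth factor and Notch routes, 8 had a log2 fold change above 0 and 12 below, none with a raw p under 0.05, and the median was -0.02. When CD replicate 4 was left out, 16 of these 20 were above 0 and the median was 0.09. The most abundant per length were S1pr1, a receptor that stabilises endothelial junctions, at 112 to 160 CPM in CD and 129 to 143 CPM in KD, and Hey1, a Notch target, at 39.8 to 50.4 CPM in CD and 47.8 to 55.2 CPM in KD. Of 20 genes of Wnt and Norrin signalling, which induces the barrier, 7 were above 0 and 13 below, and the median was -0.14. Without CD replicate 4, 15 of the 20 were above 0, where 50.7% of all tested genes were, and the median was 0.06. Ctnnb1, which carries the Wnt signal to the nucleus, was at 495 to 583 CPM in CD and 565 to 898 CPM in KD, with the high value in KD replicate 3. Tspan12, a Norrin co-receptor, was at 23.0 to 37.3 CPM in CD and 29.5 to 32.4 CPM in KD. These lists moved with the library as the vascular genes did, with 13 of 20 and 14 of 20 genes highest in CD replicate 4, where 25.3% of all tested genes were highest.

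Other transporters and receptors of the barrier gave 8 genes above 0 and 12 below among 20, with a median of -0.05, and 10 above 0 with a median of 0.01 without CD replicate 4. Slc39a10, a zinc importer, was at 263 to 423 CPM in CD and 363 to 393 CPM in KD, and Tfrc, the transferrin receptor, was at 208 to 310 CPM in CD and 240 to 348 CPM in KD. Slc2a1 and Slc16a1, which carry glucose and ketone bodies across the barrier, are given for their substrates and were picked after their values were seen. Slc2a1 was at 56.7, 48.1, 43.5 and 73.5 CPM in CD and at 57.3, 42.8 and 44.8 CPM in KD (log2 fold change -0.19 ± 0.18). Slc16a1 was at 116, 110, 94.7 and 122 CPM in CD and at 106, 90.8 and 92.3 CPM in KD (-0.19 ± 0.10). For both the groups overlapped, and neither had a raw p under 0.05.

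Genes of endothelial activation and leukocyte adhesion gave 1 gene above 0 and 9 below among the 10 tested of 12, with a median of -0.25 that was -0.01 without CD replicate 4. Plat, the tissue plasminogen activator, was at 42.4 to 49.8 CPM in CD and 32.0 to 58.1 CPM in KD, and Cav1, the coat protein of caveolae, at 15.3 to 36.3 CPM in CD and 15.1 to 21.5 CPM in KD. The selectins Sele and Selp, which inflamed endothelium displays, were at 0.147 CPM or less in every library and were not tested. Of 13 basement membrane genes 6 were above 0 and 7 below, with a median of -0.01, whereas 10 were above 0 without CD replicate 4, with a median of 0.17. Sparc, a matrix protein, was at 95.6 to 157 CPM in CD and 117 to 164 CPM in KD, and Agrn, a heparan sulfate proteoglycan, was at 95.3 to 135 CPM in CD and 113 to 133 CPM in KD. Of these 13, 12 were lowest in CD replicate 2, where 17.6% of all tested genes were. Of 19 other pericyte and smooth muscle genes tested of 20, 7 were above 0 and 12 below, with a median of -0.17 that was 0.14 without CD replicate 4. Mcam, an adhesion molecule of mural cells, was at 28.6, 27.8, 13.9 and 30.2 CPM in CD and at 20.8, 18.0 and 12.4 CPM in KD, and Myl9, a myosin light chain, at 4.31 to 11.3 CPM in CD and 4.88 to 7.68 CPM in KD. With all 7 libraries, no gene of these 6 lists had a raw p under 0.05 in edgeR's quasi-likelihood test, and in none did the CD and KD libraries part without overlap. Cspg4 is a proteoglycan of pericytes and also of oligodendrocyte precursors, so its level in whole cortex adds up both. After leaving out CD replicate 4, its log2 fold change was 0.30, with a raw p of 0.0429 in edgeR's quasi-likelihood test. No adjusted p was under 0.05. In that fit 2.73% of all tested genes had a raw p under 0.05.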

How the data were processed

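Stranded total RNA libraries of the cortex were sequenced as read pairs of 50 bases. Alignment by the authors used STAR and mm10, and they deposited raw counts per gene symbol for each mouse, counted inside STAR, without normalization or pooling. The versions of these tools and the strand setting of the counting are not given in the sources used here, so genes with overlapping exons on opposite strands may share reads. Diet and replicate came from the labels.

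From the deposited counts, edgeR 4.0.16 in R 4.3.3 was run on all 7 libraries (filterByExpr, TMM, estimateDisp, glmQLFit with robust=TRUE, glmQLFTest), with no covariate and Benjamini-Hochberg adjustment over 15881 genes. CPM was computed by library total, and fold changes used TMM factors, which ran from 0.978 to 1.04. Exon lengths and positions came from GENCODE M21 (mm10), in which all 33 genes matched 1 gene each, and promoters from RefSeq (GRCm38.p6), which had an entry for 23 of them. Adgra2, Carmn and the beta-globin gene were matched under the older names Gpr124, Mir143hg and Beta-s. The procedure was tested on simulated counts. Chi-square values per gene between replicates of the same diet ran from 16.1 to 68.3, so no library was a copy of another of its diet. Libraries of unlike diets were not compared in this way. The labels do not say how the mice were related, and p-values measure the spread between these libraries.

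The vascular genes, the other lists and the tests were chosen with earlier results of these data known. Library values were printed for the most abundant gene and the largest fold change of each role, for genes with a raw p under 0.05 or groups without overlap, and where a result turned on them. In the other lists, the 2 most abundant genes were named, with any of raw p under 0.05, and other names were added after their values were seen. Alternatives were RLE factors, library size alone, every gene with a count, DESeq2 1.42.0, edgeR's likelihood-ratio test, a replicate block, Xist as a covariate, and leaving out libraries.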

Additional observations from a re-analysis of the deposited data

Results flagged for a closer look

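In the CD group of 4 libraries, 5 of the 33 genes (15.2%) had 1 library far from the other 3, by a gap past Dixon's critical value for the share of the whole range, and 7.04% of all tested genes did. All 5 set CD replicate 4 apart, upwards, as did 2.99% of all tested genes. The summed levels of the 6 roles, which repeat the same genes, were examined too, and none passed. Chance sets a library apart in about 1 in 20 such groups. Pecam1 was at 38.0 CPM there and at 21.6 to 23.4 CPM in the other CD libraries, a gap of 0.890 of the range. Vwf was at 65.5 CPM against 14.8 to 21.3 CPM (0.872), and Slco1a4 was at 96.2 CPM against 64.0 to 68.7 CPM (0.855). Pdgfrb was at 32.9 CPM against 19.2 to 20.7 CPM (0.893), and Vtn was at 146 CPM against 41.4 to 58.8 CPM (0.834). The group of 3 KD libraries was not examined in this way. The same library held the highest sums of the meningeal fibroblast, perivascular macrophage and olfactory bulb markers, and the part of those cells in these 5 levels was not tested.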

How the results depend on the processing

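No gene of the 33 had an adjusted p under 0.05 or a raw p of at most 0.01 under any alternative. RLE factors, DESeq2 and edgeR's likelihood-ratio test changed no sign and called the same number of genes at a raw p under 0.05. With every gene with a count in the fit, 2 genes had a raw p under 0.05 (Pecam1 beside Kcnj8), where 615 of all 20332 genes did. With library size alone Flt1 was at -0.0093 and Itm2a at -0.00045. With Xist as a covariate Flt1 was at -0.036, the median log2 fold change was -0.10, and 1 gene had a raw p under 0.05. In that fit 1022 of 15881 genes had such a p. Sizes moved both ways, with Anpep going from -0.31 to -0.0056 and Abcc9 from -0.13 to -0.23. The count of genes whose groups did not overlap was 4 with RLE factors, and 4 on TMM-scaled CPM, a setting chosen after seeing the data.

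Whether replicate numbers pair the libraries was not settled. Deviations of same-numbered libraries from their group means correlated at 0.251, 0.195 and 0.0980 across 15881 genes, and libraries of unlike numbers were not compared. The fit with a replicate block takes in the libraries numbered 1 to 3 and so leaves out CD replicate 4. In it the median log2 fold change was 0.045, 1 gene had a raw p under 0.05, and 12 genes changed sign, which were the same 12 as without CD replicate 4. With the replicate block they were Cdh5 0.14, Kdr 0.13, Tek 0.092, Vwf 0.25, Ly6a 0.045, Abcb1a 0.11, Pltp 0.053, Anpep 0.69, Vtn 0.033, Acta2 0.20, Tagln 0.21 and Myh11 0.28.

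Leaving out libraries, 1 at a time or CD replicate 4 with KD replicate 3, gave 0 to 4 genes at a raw p under 0.05, 4 to 11 genes without overlap and a median of -0.23 to 0.093. The count of 0 came without KD replicate 3, where 359 of 16166 genes had such a p. Those of 2 and 3 came without CD replicate 2 (Pecam1 added) and CD replicate 3 (Pecam1 and Cldn5 added). There 338 of 15851 and 1161 of 15729 genes had one. The counts of 4 and 11 came without CD replicate 4 and KD replicate 3, where the shares of all tested genes were 2.54% and 16.1%. Both libraries were extreme for many of the vascular genes, so these counts do not test the diet. The share without overlap was 7.22% without CD replicate 4, and is not given for the other libraries left out. The log2 fold change ranged from -0.29 to 0.030 for Ocln, -0.37 to 0.27 for Cdh5, -0.38 to 0.042 for Esam, -0.20 to 0.38 for Flt1, -0.11 to 0.23 for Kdr, -0.17 to 0.12 for Tek, -0.65 to 0.40 for Vwf, -0.35 to 0.17 for Ly6a, -0.14 to 0.24 for Itm2a, -0.0093 to 0.25 for Slco1c1, -0.030 to 0.21 for Slco1a4, -0.11 to 0.036 for Slc7a5, -0.081 to 0.014 for Slc3a2, -0.27 to 0.33 for Abcb1a, -0.15 to 0.16 for Abcg2, -0.19 to 0.093 for Pltp, -0.30 to 0.032 for Pdgfrb, -0.13 to 0.20 for Rgs5, -0.35 to 0.16 for Abcc9, -0.63 to 0.59 for Anpep, -0.70 to 0.029 for Vtn, -0.11 to 0.079 for Higd1b, -0.59 to 0.14 for Acta2, -0.25 to 0.21 for Tagln and -0.54 to 0.21 for Myh11. The other 8 genes, Cldn5, Tjp1, Pecam1, Emcn, Ly6c1, Mfsd2a, Kcnj8 and Notch3, kept their sign in every alternative run. The cause of these changes was not tested. Levels rested on few counts for Kcnj8, Anpep and Higd1b, at 46 to 142, 12 to 162 and 55 to 102 counts per library.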

Other observations

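Some genes outside the comparisons followed the same library, and they were picked after their values were seen. Cldn1, a claudin of barrier cells in the meninges, was at 18.3 CPM in CD replicate 4, at 3.77 CPM in KD replicate 3 and at 1.06 to 2.39 CPM in the other 5 libraries. Foxc1, a transcription factor of meningeal and mural cells, was at 22.7 CPM in CD replicate 4, at 10.7 CPM in KD replicate 3 and at 5.35 to 8.08 CPM elsewhere. Nid1, which links laminins in the basement membrane, was at 23.1 CPM in CD replicate 4 and at 3.91 to 8.08 CPM in the other 6 libraries.

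Mylk, the kinase that starts smooth muscle contraction, was highest in KD replicate 3, and CD replicate 4 was the highest of its CD libraries. It was at 10.1, 9.26, 16.4 and 20.5 CPM in CD replicates 1 to 4 and at 11.6, 18.1 and 38.9 CPM in KD replicates 1 to 3. Its log2 fold change was 0.71 ± 0.41 (SE), with a raw p of 0.117 in edgeR's quasi-likelihood test. Of all marker genes of other cell types, only Csf1r, a receptor of microglia, had a raw p under 0.05, where 3.19% of all tested genes did. Its log2 fold change was 0.35, with a raw p of 0.0396 in edgeR's quasi-likelihood test. The log2 fold change was 0.29 with a raw p of 0.0887 without CD replicate 4. No marker tested then had a raw p under 0.05, where 2.73% of all tested genes did. Of the 6 microglia markers, 4 were above 0 and 2 below, 4 were lowest in CD replicate 4, and the median of 0.19 was 0.04 without that library.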
